A study of Homo sapiens with 6 samples.

Results

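The genes described here are 52 genes of DNA replication and of the E2F transcription factors, chosen by symbol from the 19202 genes of the deposited count table. All 52 were found and all passed the filter on low counts, among 10804 genes tested. The libraries came from MHCC97H, an established human liver cancer line known for metastasis. There were 3 control libraries, labelled sensitive to the multikinase inhibitor sorafenib, and 3 libraries from resistant cells of the same line. The sources used here do not give how resistance was obtained, the drug dose, or whether sorafenib was present at harvest. The labels do not say whether replicates were separate cultures or whether the resistant cells are 1 clone, so each p-value reflects only library-to-library spread, possibly of technical origin.

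DNA replication starts at origins that the origin recognition complex marks in G1. CDC6 and CDT1 then load the MCM2 to MCM7 helicase, and the kinase CDC7 with DBF4, CDC45 and the GINS complex turn it on in S phase. PCNA, its loader RFC, the polymerases, RPA, FEN1 and LIG1 carry out and finish synthesis, while RRM1, RRM2, TYMS and TK1 supply nucleotides. Most of these genes are known targets of E2F factors: E2F1, E2F2 and E2F3 activate transcription when the RB family is phosphorylated, and E2F7 and E2F8 repress it later in S phase.

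Total counts ran from 1913469 in control replicate 1 to 5345272 in control replicate 2, with resistant libraries between 3745068 and 4961907. Levels below are CPM, the counts divided by the library total and the TMM scaling factor. Errors beside means are SDs over 3 libraries, and every log2 fold change is resistant over control, with SE its standard error. PLEKHG5, the gene of the series title, had 0.587 to 3.08 CPM in control and 10.2 to 16.2 CPM in resistant libraries. Epithelial markers summed to 1876 to 2408 CPM in control and 1781 to 2141 CPM in resistant libraries. The 11 hepatocyte and liver cancer markers were low, at 121 to 139 CPM in control and 82.8 to 98.0 CPM in resistant libraries, and their part in the results below was not tested. Fibroblast markers summed to 14.9, 24.7 and 38.4 CPM in control replicates 1 to 3. In resistant replicates 1 to 3 they summed to 17.3, 12.2 and 44.0 CPM. The highest fibroblast sum was thus in resistant replicate 3, and the next in control replicate 3. Leukocyte markers summed to 4.52 to 9.09 CPM in control and 5.93 to 8.70 CPM in resistant libraries. Endothelial markers summed to 50.2 to 68.2 CPM in control, and to 40.6, 50.5 and 133 CPM in resistant replicates 1 to 3. Resistant replicate 3 stood apart, with 26.2 CPM of VWF and 19.2 CPM of CDH5, against at most 1.41 CPM of VWF and a CDH5 count of 0 in resistant replicates 1 and 2. Without this library the calls of MCM2, GINS3, RFC4 and POLE were lost, and 7 of the 11 calls described below were kept. Leaving out each of the other libraries in turn kept 5 to 9 of the 11. The part of the endothelial and fibroblast markers in the results was not tested. Every marker of these lists had a count in at least 1 library.

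Of the 52 genes, 9 were lower and 2 were higher in resistant cells at an adjusted p under 0.05 (edgeR's quasi-likelihood test, Benjamini-Hochberg over all genes tested). That is 21.2% called, against 24.1% of all genes tested, so the number called was near the background. By direction, 17.3% of the members were lower and 3.85% higher, against 12.3% and 11.7% of all genes. Groups of libraries did not overlap for 19 members (36.5%), against 38.1% of all genes tested. All resistant libraries lay below control for 14 of the 52 and above for 5, against 18.9% and 19.2% of all genes tested. The median log2 fold change of the members was -0.12, against -0.01 over all genes tested. This median rested in large part on control replicate 1. Without that library it was -0.02 (all genes tested 0.01), and without control replicate 2 it was -0.18. DESeq2 called 6 of the members. Calls over all genes were also fewer in DESeq2, with 1024 higher and 1042 lower, against 1269 and 1332 in edgeR. DESeq2 tested a larger set of genes. Among the members, only CDC45, E2F1, POLA1 and E2F7 were called in all 16 alternatives. The share of all genes called in all 16 was not computed, so these 4 have no background to be set against. Called members with a change of at least 2-fold numbered 2 of 52, CDC45 and E2F1, and both fell. Among all genes tested, 533 of 10804 were called with such a change.

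**Figure D1:**
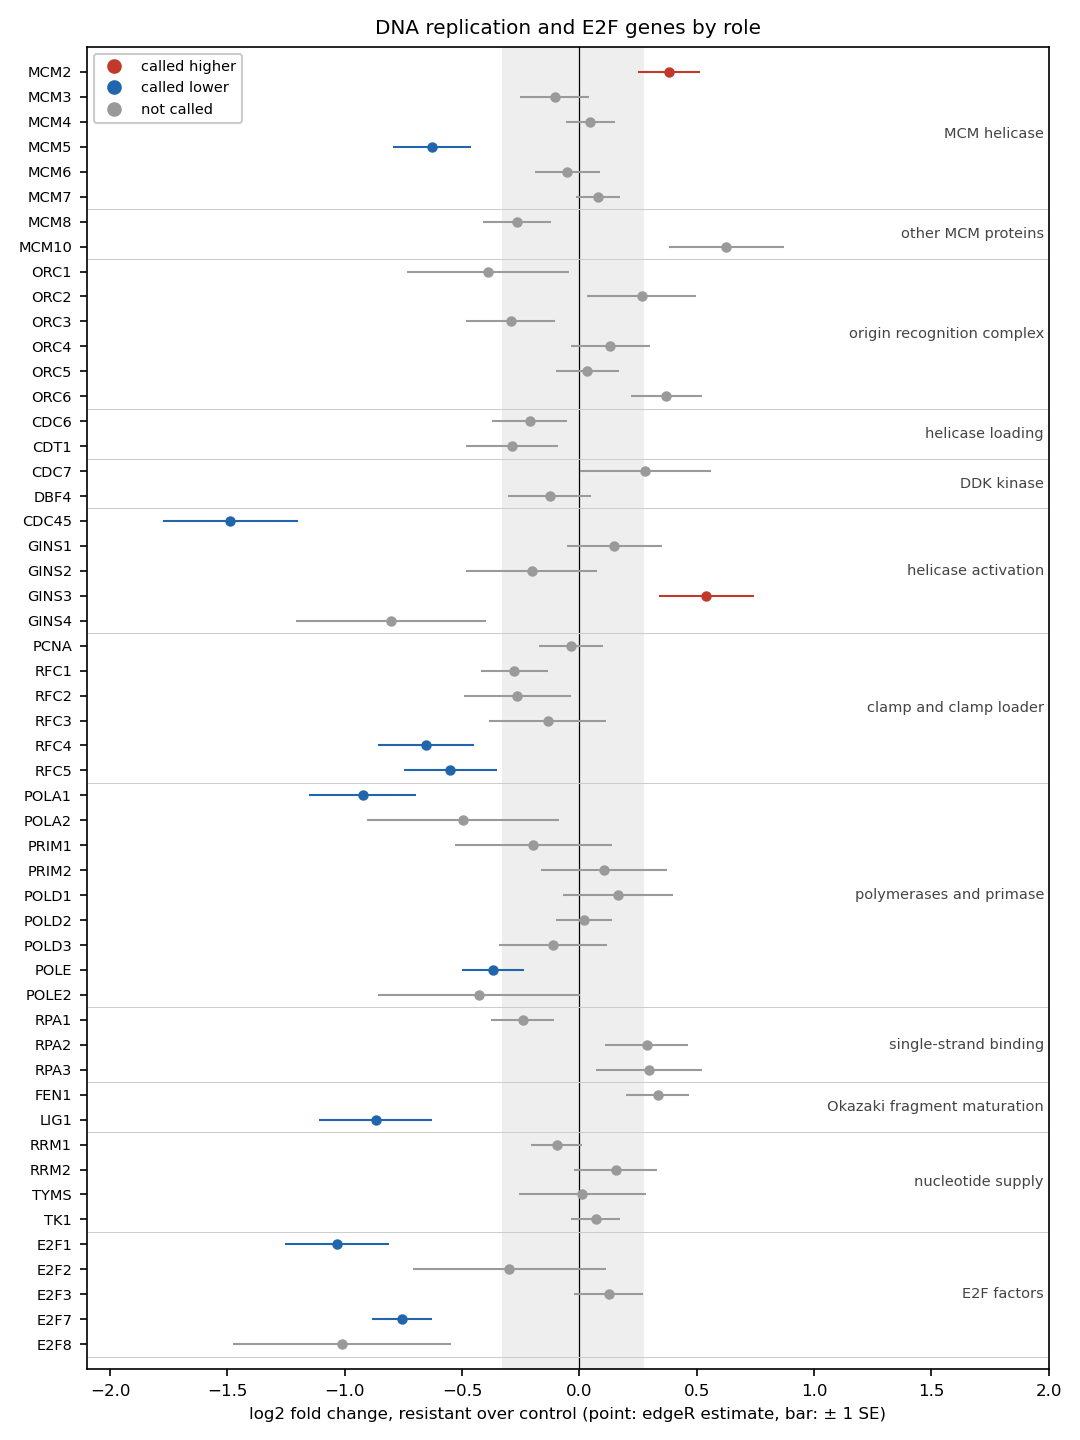
Log2 fold change of each of the 52 genes, resistant over control (x axis), in role order (y axis). Points are edgeR estimates, bars 1 SE, blue and red points are genes called lower (9) and higher (2), and the grey band spans the middle 50% of all 10804 genes tested. CDC45 lies farthest to the left at -1.49.

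The control libraries differed among themselves in these genes. Of the 52 members, 30 were highest in control replicate 1 among the control libraries (57.7%, where 38.2% of all genes tested were), and 29 were lowest in control replicate 2. Against the mean of the other control libraries, the median member was 0.15 higher in control replicate 1 and 0.21 lower in control replicate 2 on the log2 scale. Over all genes tested, the same medians were 0.02 and -0.01. The summed level of the 52 genes was 3450, 2866 and 3225 CPM in control replicates 1 to 3, and 3099, 2981 and 2953 CPM in resistant replicates 1 to 3. The resistant sums thus lay within the range of the control sums. Without control replicate 1, 9 members were called, and without control replicate 2, 10. Without control replicate 3 the number was 5, and it was 6, 7 and 7 without resistant replicates 1, 2 and 3. Calls over all genes also fell on leaving out each library, from 1269 higher and 1332 lower. They became 1028 to 1107 higher and 973 to 1154 lower, the fewest without control replicate 3.

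**Figure D2:**
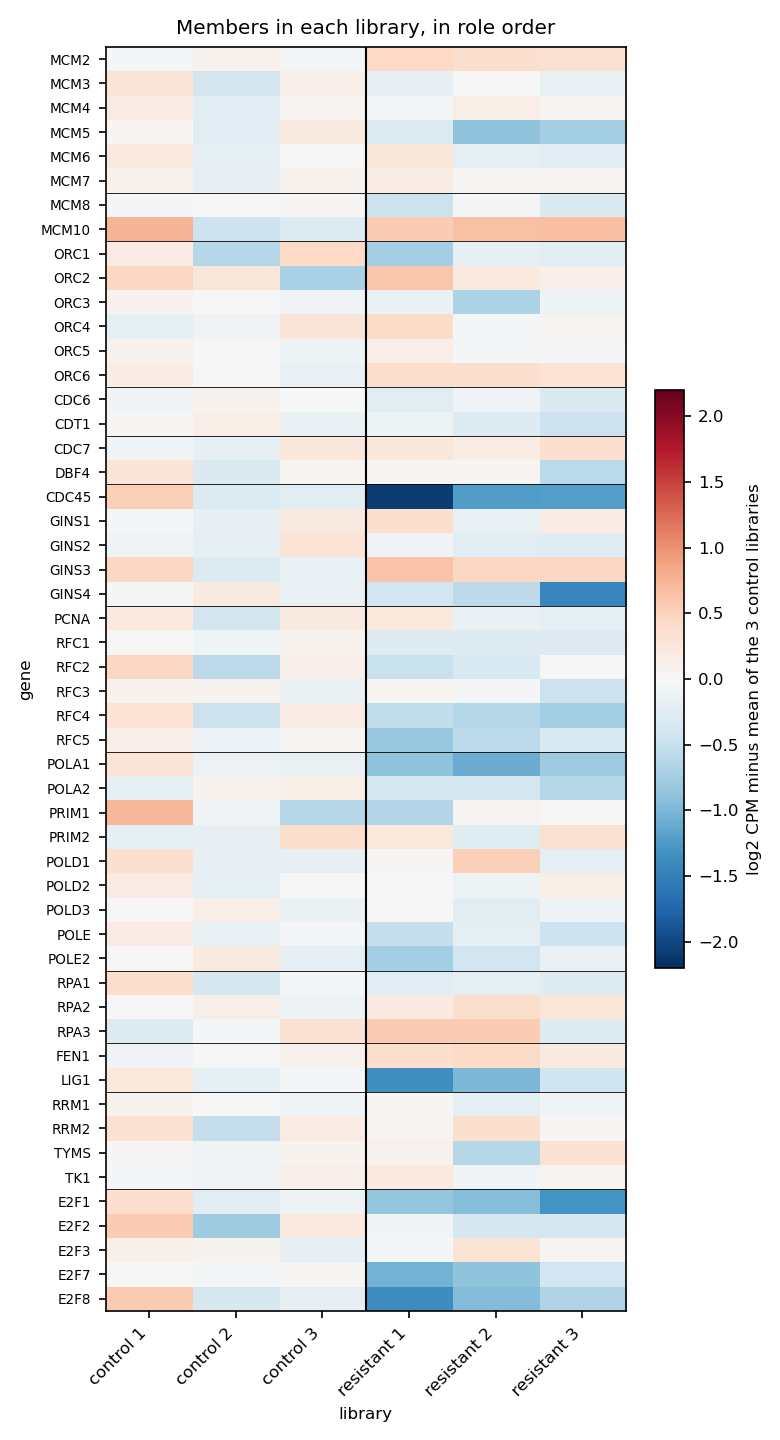
Level of each of the 52 genes (rows, in role order) in the 6 libraries (columns), as log2 CPM minus the mean of the 3 control libraries, with a prior count of 2. Red is higher and blue lower. Control replicate 1 is red for many rows and control replicate 2 blue, while CDC45, POLA1, LIG1, E2F1 and E2F7 are blue in all resistant libraries.

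Origin recognition and helicase loading genes gave no calls. None of the 6 ORC genes passed edgeR's test, with 1 at an unadjusted p under 0.05 and 0 called by DESeq2 or limma-voom. That gene was ORC6, a small subunit needed for helicase loading. ORC6 had 54.0, 48.4 and 43.4 CPM in control replicates 1 to 3 and 63.9, 63.2 and 60.2 CPM in resistant replicates 1 to 3. All resistant libraries lay above control, with a log2 fold change of 0.37 (SE 0.15, adjusted p = 0.0677 in edgeR). Without control replicate 1 ORC6 passed, at an adjusted p of 0.0469. ORC3 had 37.97 ± 1.77 CPM in control against 30.9 ± 6.66 in resistant cells, with no overlap (log2 fold change -0.29, SE 0.19, adjusted p = 0.282 in edgeR). The other ORC genes had log2 fold changes from -0.39 for ORC1 to 0.27 for ORC2, and their groups overlapped. The loading factors CDC6 and CDT1 had log2 fold changes of -0.21 (SE 0.16) and -0.29 (SE 0.20). For the kinase subunits CDC7 and DBF4 they were 0.28 (SE 0.28) and -0.13 (SE 0.18). Of these 4 genes, 0 had an unadjusted p under 0.05 in edgeR, and 0 were called by DESeq2 or limma-voom.

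The helicase subunits, which assemble in a ring with 1 copy of each, moved unequally. MCM5 fell and MCM2 rose, while MCM3, MCM4, MCM6 and MCM7 were not called. MCM5 had 64.3, 53.7 and 72.2 CPM in control replicates 1 to 3 and 51.2, 34.1 and 37.6 CPM in resistant replicates 1 to 3. Its highest resistant library was close to its lowest control library. MCM5 had a log2 fold change of -0.63 (SE 0.17, adjusted p = 0.00447 in edgeR). Its call did not hold without control replicate 3 (adjusted p = 0.0635) or resistant replicate 2 (0.052). MCM2 had 62.7, 69.5 and 63.7 CPM in control and 89.1, 84.9 and 83.1 CPM in resistant libraries. The libraries of MCM2 lay close together within each group and did not overlap, with a log2 fold change of 0.38 (SE 0.13, adjusted p = 0.0299 in edgeR). The MCM2 call was lost in DESeq2 (0.0545) and without any single library other than control replicate 2, with 0.0552 to 0.0846. The uncalled subunits had log2 fold changes from -0.10 for MCM3 to 0.08 for MCM7.

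MCM8, a related helicase of DNA repair, had 69.6 ± 1.52 CPM in control against 57.96 ± 9.12 in resistant cells (adjusted p = 0.196 in edgeR). MCM10, which helps to turn on the loaded helicase, had 30.9, 13.6 and 14.96 CPM in control and 27.3, 29.2 and 29.9 CPM in resistant libraries. Control replicate 1 lay with the resistant libraries, and the other control libraries were lower. MCM10 was not called, with a log2 fold change of 0.63 (SE 0.25, adjusted p = 0.0583 in edgeR). Without control replicate 1 the log2 fold change of MCM10 was 1.03 and the adjusted p 0.00219. Limma-voom (0.00757), no filter (0.0426), the replicate block (0.0419) and halved counts (0.0303) also called it higher.

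Among the genes of helicase activation, CDC45 fell and GINS3 rose. CDC45, the factor that joins MCM and GINS into the active helicase, had 37.0, 21.3 and 22.0 CPM in control replicates 1 to 3. In resistant replicates 1 to 3 it had 5.68, 10.8 and 11.1 CPM. Every resistant library was far below the lowest control library, and control replicate 1 was the highest. The log2 fold change of CDC45 was -1.49 (SE 0.29, adjusted p = 0.000146 in edgeR), 2.80-fold lower by the fit, resting on 260 control counts and 121 resistant counts. Across the alternatives it ranged from -1.64 to -1.21. In bulk RNA, fewer cells in S phase and less CDC45 RNA per cell cannot be told apart, and this holds for all genes here.

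The 4 GINS genes encode a complex with 1 copy of each subunit. GINS3 had 35.0, 21.1 and 22.9 CPM in control and 40.1, 35.5 and 35.6 CPM in resistant libraries. The groups did not overlap, but control replicate 1 reached nearly the level of the resistant libraries. GINS3 had a log2 fold change of 0.54 (SE 0.20, adjusted p = 0.0465 in edgeR), and was called in 7 of 16 alternatives, with adjusted p from 0.00817 to 0.243. It was lost in DESeq2 and without any single library other than control replicate 1. GINS4 had 9.91 ± 1.55 CPM in control against 5.79 ± 2.04 in resistant cells, without overlap (log2 fold change -0.80, SE 0.40, adjusted p = 0.15 in edgeR). It rested on 110 and 72 counts. GINS1 (log2 fold change 0.15, SE 0.20) and GINS2 (-0.20, SE 0.28) were not called.

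**Figure D3:**
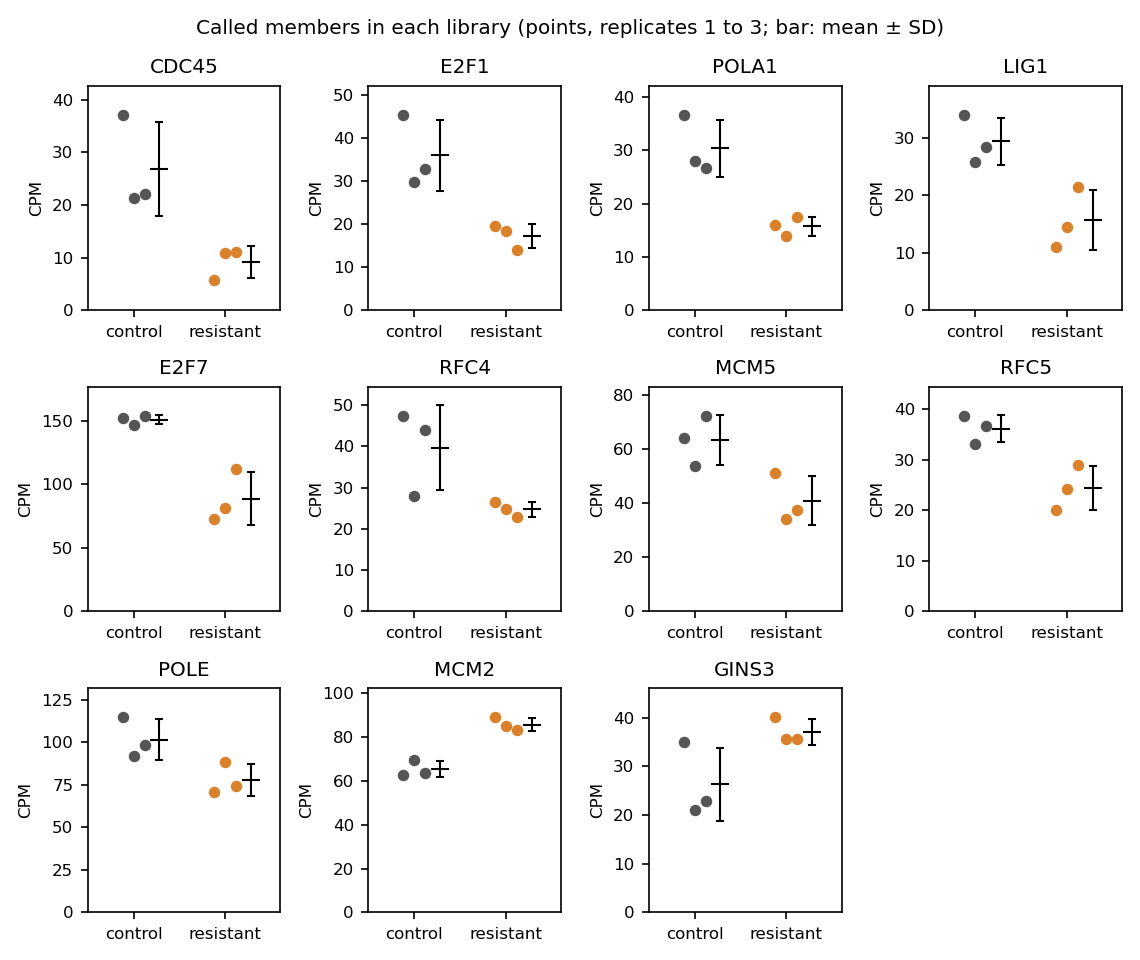
CPM of the 11 called genes in each library (y axis, from 0), with replicates 1 to 3 from left to right in each group and the mean ± SD beside them (n = 3). All 11 have groups that do not overlap. Relative to their means (26.8, 39.7 and 26.3 CPM), the control groups of CDC45, RFC4 and GINS3 are wide (SD 8.89, 10.4 and 7.55 CPM). That of E2F7 is narrow (SD 3.48 CPM at a mean of 151 CPM).

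Genes of the sliding clamp and its loader had log2 fold changes below 0 in all 6 cases. Of the 6, 2 passed the test (33.3%, against 24.1% of all genes tested). DESeq2 called 0 of the 6, and 5471 of all 10804 genes tested were also below 0. The sign was not stable for PCNA and RFC3, which reached 0.09 and 0.02 over the alternatives. RFC4, a small subunit of the clamp loader, had 47.3, 27.9 and 44.0 CPM in control and 26.5, 24.9 and 22.9 CPM in resistant libraries. Control replicate 2 was close to the resistant libraries. RFC4 had a log2 fold change of -0.65 (SE 0.20, adjusted p = 0.016 in edgeR). RFC4 missed the threshold in DESeq2 (0.0547). It also missed it without control replicate 1 (0.0975), without control replicate 3 (0.112) and without resistant replicate 3 (0.0655). RFC5, also a small subunit, had 38.6, 33.2 and 36.7 CPM in control and 20.0, 24.2 and 28.9 CPM in resistant libraries. The groups of RFC5 did not overlap, with a log2 fold change of -0.55 (SE 0.20, adjusted p = 0.0384 in edgeR). RFC5 was called in 7 of 16 alternatives, with adjusted p from 0.0296 to 0.174, and lost it without any single library other than resistant replicate 3. The large subunit RFC1 had 67.5 ± 4.06 CPM in control against 55.5 ± 0.27 in resistant cells, without overlap (adjusted p = 0.161 in edgeR). RFC2 and RFC3 had log2 fold changes of -0.26 (SE 0.23) and -0.14 (SE 0.25). PCNA, the clamp itself, had 128.5, 84.6 and 127.9 CPM in control and 130.5, 100.9 and 97.6 CPM in resistant libraries, so the groups overlapped (log2 fold change -0.04, SE 0.14).

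Of the polymerase and primase genes, POLA1 and POLE fell. POLA1, the catalytic subunit of the polymerase that lays down primers, had 36.5, 27.9 and 26.7 CPM in control replicates 1 to 3. In resistant replicates 1 to 3 it had 16.0, 13.9 and 17.4 CPM, all well below control. The log2 fold change of POLA1 was -0.92 (SE 0.23, adjusted p = 0.00243 in edgeR), and adjusted p ranged from 0.00184 to 0.0185 over the alternatives. Its partners POLA2 (log2 fold change -0.50, SE 0.41), PRIM1 (-0.20, SE 0.33) and PRIM2 (0.11, SE 0.27) were not called, and had 76 to 227 counts per group. POLE, the catalytic subunit of the leading-strand polymerase, had 114.7, 91.7 and 98.3 CPM in control and 70.9, 88.6 and 74.1 CPM in resistant libraries. Resistant replicate 2 was close to control replicate 2. POLE had a log2 fold change of -0.37 (SE 0.13, adjusted p = 0.0348 in edgeR). POLE was called in 8 of 16 alternatives. Its adjusted p was 0.179 without control replicate 1, 0.0837 without control replicate 3, 0.144 without resistant replicate 1 and 0.136 without resistant replicate 3. The lagging-strand polymerase genes POLD1, POLD2 and POLD3 had log2 fold changes of 0.17, 0.02 and -0.11, with overlapping groups. POLE2 had 84 counts in control and 74 in resistant cells (log2 fold change -0.43, SE 0.43).

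Of the Okazaki fragment genes, LIG1 fell and FEN1 was not called. LIG1, the ligase that seals the fragments, had 33.9, 25.8 and 28.5 CPM in control and 11.1, 14.6 and 21.5 CPM in resistant libraries. The groups did not overlap, and resistant replicate 3 was the highest of its group. LIG1 had a log2 fold change of -0.87 (SE 0.24, adjusted p = 0.00682 in edgeR), but not without resistant replicate 1 (log2 fold change -0.67, adjusted p = 0.057). FEN1, the nuclease that trims the fragments, had 64.8, 68.0 and 72.8 CPM in control and 89.1, 91.9 and 79.0 CPM in resistant libraries. All resistant libraries of FEN1 lay above control, with a log2 fold change of 0.33 (SE 0.13, adjusted p = 0.0625 in edgeR). Of the single-strand binding proteins, RPA2 had log2 fold change 0.29 (SE 0.18) with no overlap. RPA3 had 0.30 (SE 0.23) and RPA1 -0.24 (SE 0.13). None of the 3 was called by edgeR, with 0 at an unadjusted p under 0.05, or by DESeq2 or limma-voom, although RPA1 was called lower without control replicate 2 (adjusted p = 0.0303 in edgeR).

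Nucleotide supply genes did not pass the test. The ribonucleotide reductase subunits RRM1 and RRM2 had log2 fold changes of -0.10 (SE 0.11) and 0.15 (SE 0.18), thymidylate synthase TYMS 0.01 (SE 0.27) and thymidine kinase TK1 0.07 (SE 0.11). All 4 had overlapping groups, 0 had an unadjusted p under 0.05 in edgeR, and 0 were called by DESeq2 or limma-voom. TK1, which is cell-cycle controlled, had 171.7, 171.2 and 192.2 CPM in control and 205.4, 171.4 and 185.8 CPM in resistant libraries.

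The E2F factors included 2 of the 4 members called in all alternatives, a count without a background over all genes. E2F1, an activator, had 45.3, 29.8 and 32.9 CPM in control replicates 1 to 3 and 19.5, 18.3 and 14.1 CPM in resistant replicates 1 to 3. All resistant libraries lay below control, with a log2 fold change of -1.03 (SE 0.22, adjusted p = 0.000523 in edgeR). E2F7, an atypical repressor, had 152.2, 147.1 and 153.7 CPM in control and 72.8, 81.6 and 112.3 CPM in resistant libraries. The control libraries were within a narrow range and resistant replicate 3 was the highest of its group. The log2 fold change of E2F7 was -0.76 (SE 0.13, adjusted p = 1.67e-05 in edgeR), from -0.95 to -0.62 over the alternatives. E2F8, the other atypical repressor, had 12.3, 6.78 and 7.33 CPM in control and 2.98, 4.23 and 5.32 CPM in resistant libraries. E2F8 also did not overlap (log2 fold change -1.01, SE 0.47) but was not called (adjusted p = 0.111 in edgeR), on 85 and 55 counts. The activators E2F2 (-0.30, SE 0.41) and E2F3 (0.13, SE 0.15) were not called, and their groups overlapped.

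Per length, levels within a complex were far from equal. Values here are CPM per kb of the merged exons of coding transcripts in GENCODE 29, with n = 3. Merged exons can be longer than the transcripts expressed, so differences between genes depend in part on the annotation. MCM7 stood at 124.7 ± 13.2 in control and 131.5 ± 7.14 in resistant cells, the highest of the 52 genes in control. MCM4 followed in the helicase with 54.0 ± 7.85 and 55.3 ± 3.76, and MCM6 and MCM3 with 25.8 ± 3.70 and 25.3 ± 5.80 in control did not differ beyond their spread. MCM2 and MCM5 were level in control, at 18.0 ± 1.01 and 17.9 ± 2.63, and apart in resistant cells, at 23.7 ± 0.85 and 11.6 ± 2.55. CDC45, at 12.25 ± 4.07 in control, was within its spread of GINS3 and GINS1 (8.55 ± 1.16). In resistant cells the mean of CDC45 (4.20 ± 1.39) was below those of GINS1 (9.48 ± 1.72), GINS2 (5.13 ± 0.38) and GINS3 (15.5 ± 1.09) and above that of GINS4 (1.06 ± 0.37), and CDC45 and GINS2 did not differ beyond their spread. E2F7 was the highest E2F member in control (26.3 ± 0.61). In resistant cells E2F7 (15.5 ± 3.62) and E2F3 did not differ beyond their spread. E2F1 and E2F3 did not differ beyond their spread in control (14.4 ± 3.28 and 11.96 ± 1.31). In resistant cells E2F1 (6.92 ± 1.13) was below E2F3 (13.02 ± 1.59).

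**Figure D4:**
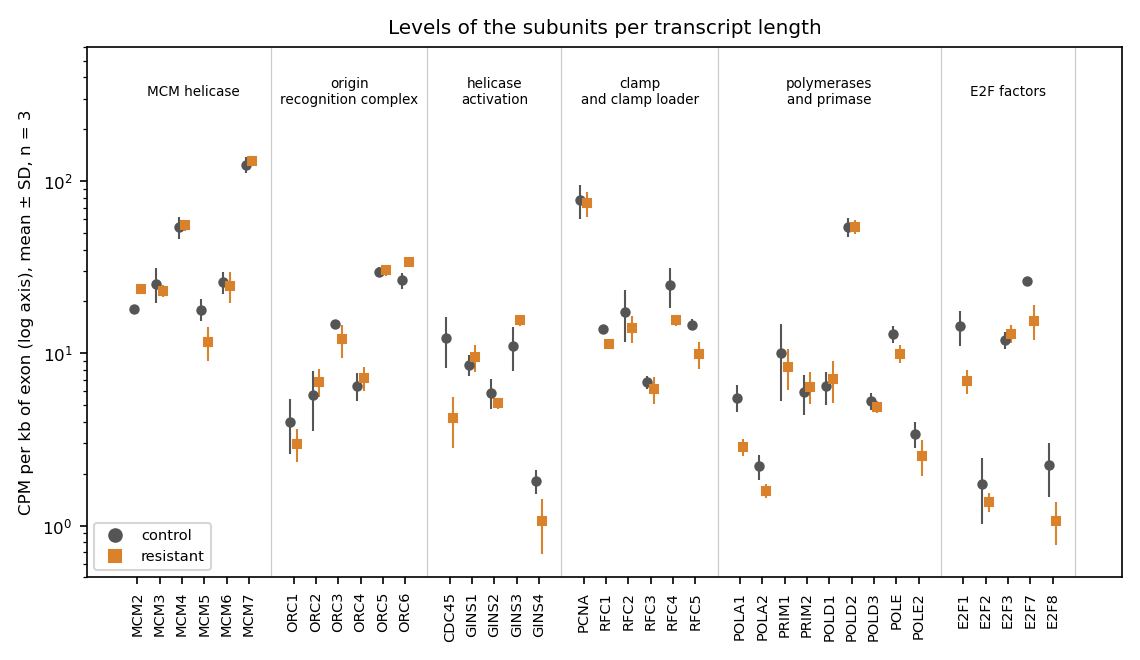
Level per kb of merged exons (y axis, CPM per kb, log axis) of the subunits of 6 groups of genes (x axis). Grey circles are control and orange squares resistant cells, as mean ± SD, n = 3. MCM7 and PCNA are the highest genes shown, and the squares of CDC45, POLA1 and E2F1 lie below the circles with bars that do not meet.

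Promoters were compared because E2F factors bind the letters TTTCCCGC, TTTCGCGC, TTTGCCGC or TTTGGCGC. These were searched on both strands in the 250 bases before the first start that RefSeq lists for each gene (GRCh38.p14). A promoter was matched by symbol for 45 of the 52 members. It was not matched for MCM4, MCM5, GINS4, POLD3, RPA2, RPA3 and E2F8. At least 1 match was found in 16 of the 45 (35.6%), against 401 of 8665 promoters of tested genes (4.63%) and 2.79% of all promoters in the table. With any listed start, the shares were 37.8% and 5.84%. Matches were present in 4 of 8 members called lower (E2F1, POLA1, LIG1 and POLE) and in 12 of 35 not called. The result for the 2 called higher, MCM2 and GINS3, turned on the window, with 0 of 2 in these 250 bases and 2 of 2 when 50 bases after the start were added. With those 300 bases, 22 of 45 members held a match (48.9%), against 5.61% of tested genes. The E2F letters thus stood before genes that fell and genes that were not called. A match is a run of letters and does not show binding. Shown here are 160 bases before the RefSeq start of 3 genes that fell and 2 that were not called, from 5′ to 3′ on the gene's strand, with matches in capitals. The GENCODE 29 gene begins upstream of the RefSeq start for E2F1, POLE and PCNA, so that the last 19, 23 and 4 bases shown lie inside it.
E2F1 (chr20:33686386-33686545, minus strand): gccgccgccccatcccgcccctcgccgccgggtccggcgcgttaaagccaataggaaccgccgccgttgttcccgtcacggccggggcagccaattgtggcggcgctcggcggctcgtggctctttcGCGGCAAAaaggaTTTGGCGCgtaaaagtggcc
POLA1 (chrX:24693758-24693917, plus strand): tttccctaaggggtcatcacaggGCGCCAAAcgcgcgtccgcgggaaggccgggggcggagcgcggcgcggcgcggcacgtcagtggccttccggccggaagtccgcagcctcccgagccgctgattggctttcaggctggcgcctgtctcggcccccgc
POLE (chr12:132687343-132687502, minus strand): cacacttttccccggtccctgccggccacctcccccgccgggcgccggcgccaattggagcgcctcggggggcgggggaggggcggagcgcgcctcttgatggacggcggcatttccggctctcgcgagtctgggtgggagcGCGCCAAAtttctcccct
MCM6 (chr2:135876444-135876603, minus strand): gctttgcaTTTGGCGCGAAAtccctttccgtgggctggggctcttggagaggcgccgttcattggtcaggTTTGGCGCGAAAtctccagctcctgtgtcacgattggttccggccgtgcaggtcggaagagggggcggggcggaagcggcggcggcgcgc
PCNA (chr20:5126623-5126782, minus strand): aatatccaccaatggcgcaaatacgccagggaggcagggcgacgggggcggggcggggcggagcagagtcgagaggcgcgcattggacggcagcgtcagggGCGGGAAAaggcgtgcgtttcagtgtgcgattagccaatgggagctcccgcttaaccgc

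E2F1 had 2 matches close to its start, 1 on each strand, and fell. The match of E2F1 nearer the start lies inside the GENCODE gene but for its first base, and the match of POLE lies wholly inside it. MCM6 had 4, as 2 overlapping pairs of a match on each strand, and its log2 fold change was -0.05 (SE 0.14). POLA1, POLE and PCNA had 1 each in the stretch shown. The CHR letters TTTGAA, known from promoters of mitotic genes, were found in 2 of 45 members (4.44%), against 8.19% of tested genes and 16 of 30 promoters of the G2/M and mitosis list (53.3%). The letters CCAAT were found in 26 of the 45 (57.8%), against 35.2% of tested genes. In the related lists the share was 76.7% for G2/M and mitosis genes, 54.5% for checkpoint genes and 53.1% for other replication genes. It was 26.9% for regulators of RB, cyclins and E2F.

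The genes that control E2F activity moved in both directions. Of 29 tested regulators of RB, cyclins and E2F, 6 were higher and 1 lower (24.1% called, against 24.1% of all genes tested). By direction, 20.7% were higher and 3.45% lower, against 11.7% and 12.3% of all genes. The median log2 fold change was 0.02, which was -0.07 without control replicate 2 and -0.02 without resistant replicate 1. CCND1, the cyclin that starts RB phosphorylation, had 148.1, 228.1 and 217.7 CPM in control and 366.5, 383.9 and 356.0 CPM in resistant libraries (log2 fold change 0.88, SE 0.11, adjusted p = 8.00e-08 in edgeR). Its kinase partner CDK4 rose from 182.7 ± 9.82 to 273.9 ± 10.3 CPM. The CDK inhibitor CDKN1A rose too, from 103.0 ± 6.56 to 155.8 ± 14.3 CPM. RBL2, the RB family member p130 that acts in resting cells, fell from 59.8 ± 7.09 to 36.5 ± 1.695 CPM. RB1 (8.70 ± 3.40 and 6.98 ± 2.14 CPM) and CCNE1 (14.2 ± 7.93 and 17.3 ± 2.01 CPM) were not called. E2F4 and E2F5, the E2F factors that pair with RB relatives to repress, were named after their values were seen. E2F5 had 9.26, 10.4 and 17.9 CPM in control and 26.3, 28.5 and 25.2 CPM in resistant libraries (log2 fold change 1.07, SE 0.26, adjusted p = 0.00165 in edgeR), and E2F4 rose from 67.3 ± 9.64 to 87.8 ± 5.55 CPM (adjusted p = 0.0402). The E2F4 call was lost in DESeq2 and without control replicate 1 or 2 or resistant replicate 2 or 3. CDC25A, a phosphatase that activates CDKs, is the remaining called gene of this list and was also named after its values were seen. CDC25A had 5.14, 9.42 and 15.8 CPM in control and 17.9, 21.9 and 18.4 CPM in resistant libraries (log2 fold change 0.88, adjusted p = 0.0278 in edgeR), a call lost in DESeq2 and without control replicate 1 or 2 or resistant replicate 2.

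Other replication genes changed both ways, 5 higher and 6 lower of 39 tested (28.2% called, against 24.1% of all genes tested). Their median log2 fold change was -0.05. The sign of this median was not stable: it was 0.03 without control replicate 1, 0.05 without control replicate 3, 0.02 without resistant replicate 2 and 0.03 in limma-voom. TOP1, which relaxes DNA ahead of the fork, fell from 216.6 ± 15.8 to 137.4 ± 13.7 CPM. The fork protection gene TIMELESS fell from 142.3 ± 12.7 to 88.0 ± 0.67 CPM, and the histone chaperone ASF1A from 88.1 ± 14.8 to 56.8 ± 11.1 CPM. MCMBP, a binding partner of MCM proteins, rose from 116.8 ± 4.84 to 159.0 ± 22.3 CPM, and UHRF1, which guides DNA methylation at the fork, from 37.5 ± 2.05 to 55.5 ± 6.88 CPM. DONSON, a replication initiation factor, rose, though its groups overlapped (log2 fold change 0.78, SE 0.29, adjusted p = 0.0422 in edgeR). The DONSON call held in 9 of 16 alternatives and was lost in DESeq2 and without control replicate 2 or 3 or resistant replicate 1 or 2. ASF1A missed the threshold without control replicate 3 (0.0509) and UHRF1 without resistant replicate 3 (0.0515). Of 13 checkpoint genes, 15.4% were called, against 24.1% of all genes tested. The kinase CHEK2 was lower (15.04 ± 3.39 and 7.86 ± 1.44 CPM) and the clamp gene RAD1 higher (24.3 ± 2.35 and 37.5 ± 1.93 CPM). The CHEK2 call was lost in DESeq2 and without control replicate 1 or 2 or resistant replicate 1 or 2, and the RAD1 call without control replicate 2.

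G2/M and mitosis genes were set beside the replication genes as the other proliferation-linked group. Of these 36 genes, 16 were lower (44.4%, against 12.3% of all genes tested). The median log2 fold change of the list was -0.42. None was called higher in edgeR, with 1 at an unadjusted p under 0.05 and 0 called higher by DESeq2 or limma-voom. MKI67 had 426.2, 362.0 and 393.4 CPM in control and 214.1, 292.7 and 263.3 CPM in resistant libraries. TOP2A (log2 fold change -0.90, SE 0.10) and CENPF (-0.61, SE 0.09) fell as well. Without control replicate 1 the G2/M median was -0.26 and 11 genes were lower, and that of the replication genes was -0.02. With all libraries the replication genes had 17.3% lower and a median of -0.12. The difference between these lists was not tested.

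**Figure D5:**
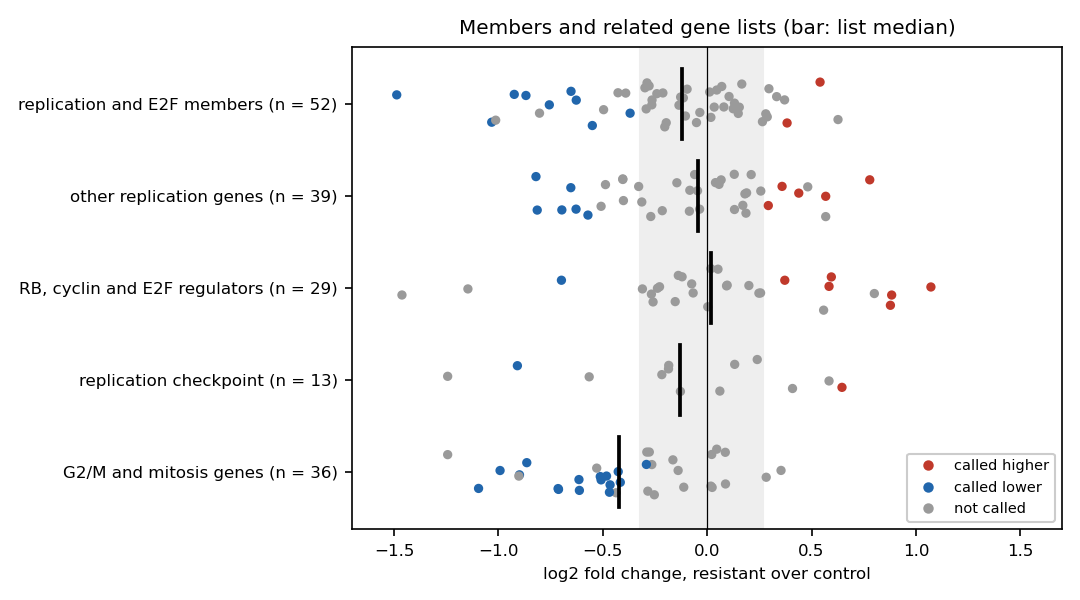
Log2 fold change, resistant over control (x axis), of the tested genes of 5 lists (rows, jittered), with the list median as a black bar. Blue and red points are called lower and higher, and the grey band spans the middle 50% of all genes tested. Medians are -0.12 for the replication and E2F genes and -0.42 for G2/M and mitosis genes (-0.02 and -0.26 without control replicate 1).

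The 52 genes lie on 19 chromosomes, matched by symbol to GENCODE 29 (GRCh38). Which build lay behind the counts was not stated. CDC45 lies on chromosome 22 from 19479459 to 19520612 (plus strand), and MCM5 on the same chromosome from 35400063 to 35425430 (plus). E2F1 lies on chromosome 20 from 33675683 to 33686404 (minus), POLA1 on X from 24693919 to 24996986 (plus) and E2F7 on chromosome 12 from 77021247 to 77065580 (minus). POLE is on chromosome 12 from 132623753 to 132687365 (minus), LIG1 on chromosome 19 from 48115445 to 48170603 (minus), and MCM2 on chromosome 3 from 127598223 to 127622436 (plus). Tested genes within 5 Mb, other than members, had median log2 fold changes of -0.05 around CDC45, 0.03 around E2F1, 0.04 around POLA1, 0.14 around E2F7, 0.02 around LIG1 and -0.15 around MCM5. Over all members these medians ran from -0.36 around PRIM2 to 0.40 around MCM10. Around MCM10, on chromosome 10, 10 of 25 neighbours were called higher and 0 lower.

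Of the 11 called members, 6 (CDC45, E2F1, E2F7, POLA1, POLE and MCM5) overlap no other annotated gene of the coding and long non-coding classes searched. The other 5 do: MCM2 overlaps TPRA1, RFC4 overlaps EIF4A2, RFC5 overlaps WSB2, and GINS3 and LIG1 overlap long non-coding genes, all on the other strand. FEN1 overlaps FADS2 on the same strand, and PRIM1 overlaps NACA on the same strand. These overlaps are of whole gene spans, introns included, and shared exon bases were not examined. Whether counting used strand was not stated, and strand would not separate the same-strand pairs. How far reads of one gene were counted for the other is thus unknown, and these values are uncertain.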

How the data were processed

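Total RNA of MHCC97H cells was sequenced in 6 libraries, 3 control and 3 resistant, grouped by their labels. The authors deposited raw counts per gene symbol, which are whole numbers. Per the submitters' processing notes, Trimmomatic, HISAT2 and Bowtie2 were used, with no versions or roles. The counter, build, annotation and strand setting were not given in the sources used here. Even values made up 63.6 to 69.1% of non-zero counts, so counting errors may be larger than the totals imply, and halved counts were 1 alternative. The file lists 27 symbols as dates, none of them a gene named here.

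After filterByExpr and TMM scaling, the quasi-likelihood test of edgeR 4.0.16 (R 4.3.3) compared the groups with no other term. Calls are at a Benjamini-Hochberg adjusted p of 0.05 over 10804 genes. SE is the log2 fold change divided by the square root of F. The biological coefficient of variation was 13.0%. The scripts were tested on simulated data. Libraries of a group differed on halved counts (chi-square over degrees of freedom 1.78 to 2.86), and each was counted once. DESeq2 1.42.0, limma-voom (limma 3.58.1), other scalings and filters, a replicate block, a stricter threshold and leaving out each library were alternatives.

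The members and gene lists were chosen with earlier results of these data known. Every member could be named. Of other lists, the 3 called genes with the smallest p in each direction were named, with CDKN1A, CCND1, CCNE1, RB1, MKI67 and TOP2A, and PLEKHG5. E2F4, E2F5 and CDC25A, and the endothelial markers VWF and CDH5, fall outside this rule and were named after their values were seen. Gene spans and exon lengths are from GENCODE 29, promoters from RefSeq (GRCh38.p14). Plots used matplotlib 3.10.9 (Python 3.11.15).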

Additional observations from a re-analysis of the deposited data

How the results depend on the processing

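Each result was recomputed under 16 alternatives, 6 of which leave out 1 library. Of 832 values of single members, 784 stayed on their side of the threshold, 41 lost a call, 7 gained one and 0 reversed. Only the 11 members called in the main fit could lose a call. Members not called in the main fit gave most of the values that stayed. A reversal was counted only where the main fit or the alternative called the gene. Estimates of some uncalled members did change sign, as for MCM3 (-0.30 to 0.03) and RRM2 (-0.09 to 0.31). Among all genes, 1269 were higher and 1332 lower, and at an adjusted p of 0.01 these were 800 and 851. The 2 members called higher became 1 with upper-quartile scaling and with library totals, and 0 in DESeq2 and at 0.01. Leaving out each library gave 0 to 3 members higher, and 5 (without control replicate 3) to 9 lower in place of 9. Of the other replication genes, 5 higher became 3 with upper-quartile scaling, library totals or no filter, and 2 in DESeq2 and at 0.01. The 6 lower became 3 in DESeq2 and at 0.01. Leaving out each library gave 2 to 3 higher and 3 to 6 lower. Of the RB and E2F regulators, 1 was lower, 2 in limma-voom, and 1 to 2 on leaving out each library. The 1 checkpoint gene higher became 0 at 0.01. The 1 checkpoint gene lower became 0 in DESeq2 and at 0.01, 2 with halved counts, and 0 to 1 on leaving out each library. For G2/M genes, leaving out each library gave 0 to 1 higher, the 1 being without control replicate 3. The causes were not tested.

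The labels number the libraries 1 to 3 in each group, but the numbers were not shown to pair them: deviations of same-numbered libraries from their group means correlated at -0.015, 0.033 and -0.006. With the replicate block, 1248 genes were higher and 1270 lower, 3 members were higher and 9 lower, and 2 other replication genes were higher. Depth limits 5 members that had under 100 counts in a group.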

Other observations

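For 4 pairs of genes that act in the same complex or step, the ratio of their CPM was taken within each library. FEN1 and PCNA, which enter 1 pair each, were not called. These pairs were chosen after the values were seen, so no test is given. The ratio of MCM5 to MCM2 was 1.02, 0.772 and 1.13 in control replicates 1 to 3 and 0.575, 0.402 and 0.453 in resistant replicates 1 to 3. The ratio of GINS3 to CDC45 stayed between 0.944 and 1.04 in the control libraries and was 7.05, 3.28 and 3.22 in the resistant ones. Both genes were highest in control replicate 1, and their ratio in that library was like those of the other control libraries. The ratio of LIG1 to FEN1 was 0.524, 0.379 and 0.391 in control and 0.125, 0.159 and 0.272 in resistant libraries. The ratio of RFC4 to PCNA was 0.368, 0.33 and 0.344 in control and 0.203, 0.247 and 0.235 in resistant libraries, so that RFC4 in control replicate 2 was low together with PCNA.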
